A study of Meriones unguiculatus and Mus musculus with 2 samples.

Results

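The vascular endothelial growth factor (VEGF) and angiopoietin genes are described here in skin wounds of the Mongolian gerbil, Meriones unguiculatus, and the ICR mouse, which is an outbred laboratory stock. Both were sampled 3 days after wounding. The 10 genes, the ligands Vegfa, Vegfb, Vegfc, Angpt1 and Angpt2 and the receptors Kdr, Flt1, Flt4, Tek and Tie1, were taken by name from a deposited table of 41214 mouse genes, and all 10 were found there, each once. Each species had 1 RNA sequencing library, so no difference below has a replicate check, a test or a p-value. The labels name the tissue dermis, give no genotype, age or number of animals, and give a strain for the mouse alone.

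VEGF proteins are secreted dimers that bind receptor tyrosine kinases on endothelial cells. VEGF-A acts mainly through the KDR receptor to make blood vessels sprout and leak, while VEGF-C acts mainly through FLT4 on lymphatic vessels. Angiopoietin 1 activates the receptor TEK, also called TIE2, and stabilises vessels, and angiopoietin 2, released by activated endothelium, mostly opposes it there. In healing skin keratinocytes and macrophages are known sources of VEGF-A, and new capillaries enter the wound bed as granulation tissue forms.

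Values were FPKM, fragments scaled to sequence length and library total. Each gerbil level was taken to belong to a gerbil sequence, assembled from the reads and set beside its matching mouse gene, and the match carries an expectation value that is smaller the stronger it is. ICR levels were listed without such a match, so a difference between species cannot be told apart from a difference in how levels were obtained. Of the 10 genes, 9 had a gerbil value and Flt1 had none. The match had an expectation value of 0 for 8 of the 9, and of 5e-130 for Angpt1. The table held no read counts, so depth is unknown and values carry no interval. In each library the RNA came from a mixed tissue, where fewer cells of a type and less RNA per cell cannot be told apart.

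Because related genes can draw the same gerbil sequence, the mouse coding sequences of the 10 genes were compared with all other mouse coding sequences of the GENCODE M21 annotation. Kdr and Flt1 were closest to each other, with 70.7% identity over 1154 aligned bases, or 28.8% of the Flt1 coding sequence. Tek and Tie1 had 73.8% identity over 973 bases, and Angpt1 and Angpt2 had 66.2% over 1233 bases. Vegfa was closest to placental growth factor, Pgf, with 73.0% identity over 178 bases, and Vegfc had no related coding sequence over at least 100 bases. The closest 60-base stretch of the 2 VEGF receptors Flt1 and Kdr, both on mouse chromosome 5, is shown to give the scale of the resemblance around the receptor that has no gerbil value. Capitals mark the 8 bases that differ, and 52 are identical. The stretch is coding bases 2404 to 2463 of Flt1 and 2416 to 2475 of Kdr, from the GENCODE M21 transcripts, 5′ to 3′ on the coding strand.
Flt1: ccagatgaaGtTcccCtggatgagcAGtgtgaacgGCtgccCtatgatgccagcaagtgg
Kdr: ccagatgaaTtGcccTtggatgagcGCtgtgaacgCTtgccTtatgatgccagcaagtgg
None of the 9 gerbil values was the same as that of a gene with a related coding sequence. Each was listed for 5 to 27 other rows, and in this range that is the rule: of 7331 rows with a gerbil value from 1.90 to 10.02 FPKM, the span of the 9 genes, 99.7% shared it with another row. Values carry 2 decimals, and related genes can also share a value, as Prkca and Prkcb did at 6.82 FPKM. How much sharing came from rounding and how much from the same sequence matched to several genes was not tested.

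Vegfa, the main driver of vessel sprouting, was the most abundant of the 10 genes in ICR and of the 9 with a value in gerbil. Vegfa was lower in gerbil than in ICR. It was at 10.02 FPKM in gerbil and 57.3 FPKM in ICR (chromosome 17, 46016993 to 46032377, GRCm38, minus strand). The log2 difference was -2.40, computed throughout as log2(FPKM + 1) in gerbil minus that in ICR, so Vegfa was 5.29-fold lower on that scale and 5.72-fold lower in plain FPKM. In rank among 14054 measured protein-coding genes, Vegfa lay at percentile 57.1 in gerbil and 90.6 in ICR. A gene counted as measured when it had both values and reached 1 FPKM in at least 1 library. All 9 genes with both values did.

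Vegfb, a ligand of FLT1 that is a weak inducer of vessels, was also lower in gerbil. It was at 1.90 FPKM in gerbil and 5.07 FPKM in ICR (chromosome 19, 6982473 to 6987651, minus strand), a log2 difference of -1.07. Vegfb ranked second of the 10 genes in ICR and last of 9 in gerbil.

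Vegfc, the lymphatic ligand, went the other way. It was at 3.17 FPKM in gerbil and 1.22 FPKM in ICR (chromosome 8, 54077532 to 54186454, plus strand), a log2 difference of 0.91. Vegfa, Vegfb and Vegfc together came to 15.1 FPKM in gerbil and 63.6 FPKM in ICR, and Vegfa made up 66.4% of that sum in gerbil and 90.1% in ICR. The sum leaves out the related ligands Pgf and Vegfd, which had no gerbil value and were at 12.4 and 17.05 FPKM in ICR. The shares therefore hold for these 3 ligands alone.

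Flt4, the receptor of VEGF-C that marks lymphatic endothelium, had the largest difference on the gerbil side. It was at 5.19 FPKM in gerbil and 0.406 FPKM in ICR (chromosome 11, 49609263 to 49652739, plus strand), a log2 difference of 2.14 or 4.40-fold on the FPKM + 1 scale. Flt4 was second of 9 in gerbil and last of 10 in ICR. It reached 1 FPKM through the gerbil library alone, so with the floor it could only be higher there.

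Kdr, the main signalling receptor of VEGF-A, was at 2.16 FPKM in gerbil and 1.38 FPKM in ICR (chromosome 5, 75932827 to 75978458, minus strand), a log2 difference of 0.41. The order of the receptors therefore differed: Flt4 was 2.40 times the level of Kdr in gerbil and 0.293 times in ICR. Flt1, a receptor that binds VEGF-A tightly and also exists as a soluble trap, was at 2.70 FPKM in ICR (chromosome 5, 147561604 to 147726011, minus strand), the highest of the 5 receptors there, and could not be compared.

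**Figure D1:**
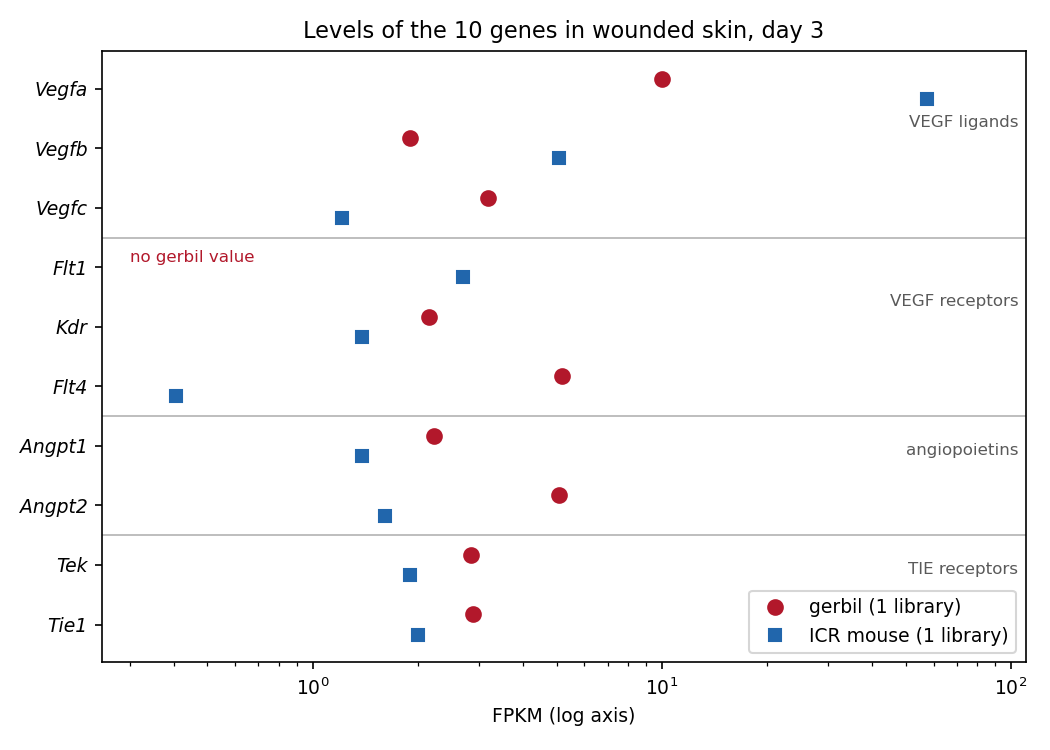
Level of each gene in FPKM on a log axis, 1 library per species, with gerbil (circle) above ICR (square) in each row. Vegfa and Vegfb lie lower in gerbil, the other 7 genes with both values lie higher, and Flt1 has an ICR value alone.

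The angiopoietin ligands were both low and both higher in gerbil. Angpt1, the TEK agonist made by perivascular cells, was at 2.23 FPKM in gerbil and 1.39 FPKM in ICR (chromosome 15, 42424727 to 42676977, minus strand), a log2 difference of 0.44. Angpt2, the context-dependent antagonist stored by endothelial cells, was at 5.06 FPKM in gerbil and 1.61 FPKM in ICR (chromosome 8, 18690263 to 18741562, minus strand), a log2 difference of 1.22 or 2.32-fold. The ratio of Angpt2 to Angpt1 within a library, which no scaling between libraries changes, was 2.27 in gerbil and 1.16 in ICR. It rests in gerbil on the weaker match of Angpt1.

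Tek and its orphan partner Tie1, which modulates TEK signalling, were close to each other in each library. Tek was at 2.85 FPKM in gerbil and 1.91 FPKM in ICR (chromosome 4, 94739289 to 94874976, plus strand). Tie1 was at 2.88 FPKM in gerbil and 1.998 FPKM in ICR (chromosome 4, 118471191 to 118490061, minus strand). Their log2 differences were 0.41 and 0.37, and the Tek to Tie1 ratio was 0.990 in gerbil and 0.954 in ICR.

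Across the 9 genes, 7 were higher and 2 lower in gerbil, with a median log2 difference of 0.41, against 0.30 over measured protein-coding genes and 0.87 over all 20089 measured symbols. By a size rule of 4-fold, 1 of the 9 was higher in gerbil (Flt4) and 1 was higher in ICR (Vegfa). Among all measured symbols, 25.9% passed that rule on the gerbil side and 5.56% on the ICR side. Among protein-coding genes, 9.71% passed it on the gerbil side and 7.42% on the ICR side. A count of 1 in 9 in each direction is close to the protein-coding share.

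Genes low in ICR were mostly higher in gerbil, so each gene was also set beside protein-coding genes of like ICR level. These were matched with an expectation value of 0 and lay within 1.5-fold of the gene in ICR. They were chosen by ICR level alone, and no like grouping by gerbil level was made. Near Vegfa there were 1070 such genes, with a median log2 difference of -0.29, and 13.3% of them were at least 4-fold higher in ICR. Vegfa lay below 90.7% of them. Near Vegfb there were 1998 genes with a median of 0.19, and Vegfb lay below 88.2% of them. Both ligands therefore sat toward the ICR side of genes of their ICR level, without standing outside their range.

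Near Flt4 there were 412 genes, of which 98.5% were higher in gerbil, 14.6% by 4-fold or more. Flt4 lay above 87.4% of them. Angpt2 lay above 75.4% of its 981 neighbours and Vegfc above 63.7% of 824. For Kdr, Angpt1, Tek and Tie1 the share of neighbours below the gene was 35.9%, 37.7%, 42.5% and 43.1%. These 4 were thus slightly less displaced toward gerbil than most coding genes of their ICR level. Among the neighbours of Kdr 85.8% were higher in gerbil, with a median difference of 0.65, and being higher there is not particular to these genes.

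**Figure D2:**
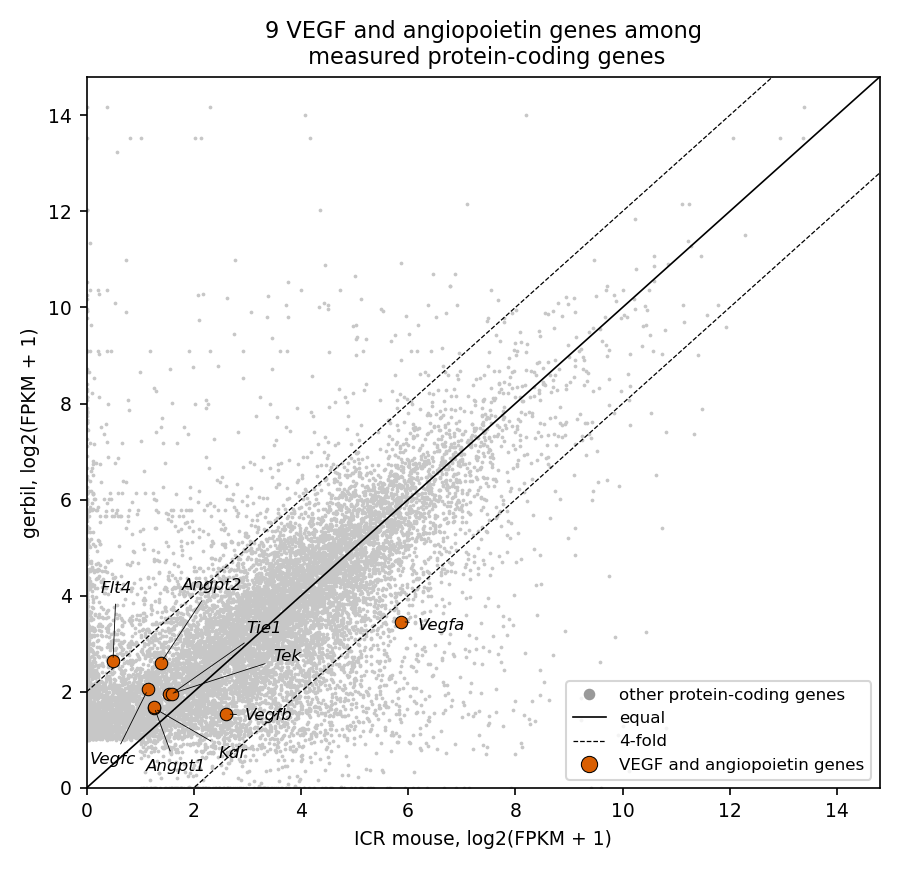
Log2(FPKM + 1) in gerbil (vertical axis) against ICR (horizontal axis) for measured protein-coding genes (grey), with the 9 genes that have both values named. Vegfa lies below the lower 4-fold line and Flt4 above the upper one. Most of the others sit in the dense low corner, where most coding genes of like ICR level lie above the line of equality.

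Ratios within a library compare the ligands with the receptors free of any scaling between species, though each gerbil level still depends on the length of its assembled sequence. Vegfa stood at 4.64 times Kdr in gerbil and 41.4 times in ICR. Relative to Vegfc it stood at 3.16 times in gerbil and 47.1 times in ICR, and relative to Vegfb at 5.27 times in gerbil and 11.3 times in ICR. Vegfc was 0.611 times its receptor Flt4 in gerbil and 3.00 times in ICR, without Vegfd, another FLT4 ligand, which had no gerbil value.

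Against Cdh5, the VE-cadherin gene of endothelial junctions (5.79 FPKM in gerbil and 3.62 in ICR), most of the receptors were nearly level. Kdr was 0.373 of Cdh5 in gerbil and 0.383 in ICR. Tek was 0.492 of it in gerbil and 0.527 in ICR, and Tie1 0.497 in gerbil and 0.552 in ICR. Flt4 departed from this, at 0.896 of Cdh5 in gerbil and 0.112 in ICR, and so did Angpt2, at 0.874 in gerbil and 0.445 in ICR. Against Pecam1, the platelet endothelial adhesion molecule (21.9 FPKM in gerbil and 10.7 in ICR), the receptors were not level. Kdr was at 0.0987 of it in gerbil and 0.130 in ICR, Tek at 0.130 in gerbil and 0.179 in ICR, and Tie1 at 0.132 in gerbil and 0.187 in ICR. Flt4 was at 0.237 of Pecam1 in gerbil and 0.0380 in ICR. Near-level ratios of Kdr, Tek and Tie1 thus depend on the choice of Cdh5.

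**Figure D3:**
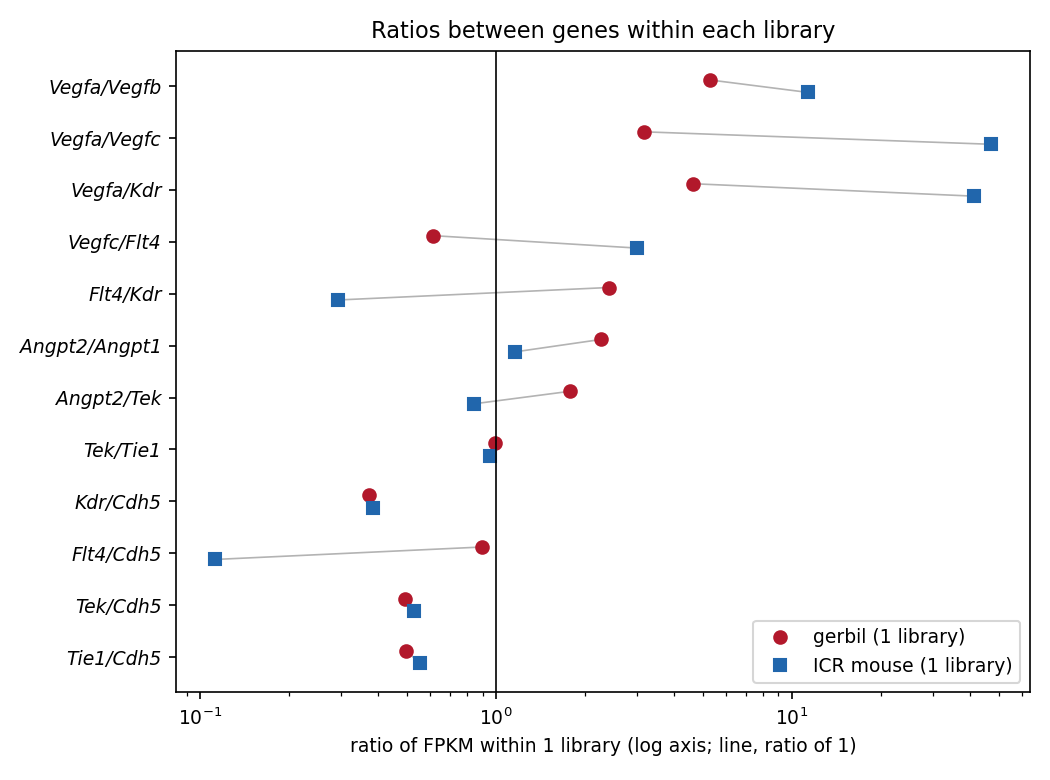
Ratios of FPKM between pairs of genes within each library on a log axis, with gerbil (circle) above ICR (square) and a grey line joining them. The Vegfa ratios are lower in gerbil, the Flt4 ratios to Kdr and Cdh5 are higher, and Kdr, Tek and Tie1 relative to Cdh5 nearly coincide.

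The gerbil values were also rescaled to reference sets, since no common scale between species is given. Scaling to a trimmed mean of log ratios lowered gerbil by 0.52 on the log2 scale. Housekeeping genes lowered it by 0.34 and blood endothelial markers by 0.57. Scaling to a protein-coding median lowered it by 0.04. That median used only the 10742 coding genes for which neither library fell below 1 FPKM. The median of 0.30 given above covers all 14054 measured protein-coding genes instead, and scaling to it was not tested. Vegfa and Vegfb were lower in gerbil under each scaling, Vegfa between -2.91 and -2.44. Lowering gerbil could only move these 2 ligands that way. Vegfc, Angpt2 and Flt4 were higher in gerbil under each, although Flt4 fell short of 4-fold under all but the protein-coding median, at 1.68 relative to the endothelial markers. Kdr, Angpt1, Tek and Tie1 came close to level relative to the endothelial markers, at 0.04, 0.07, 0.01 and -0.03, so Tie1 changed side.

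**Figure D4:**
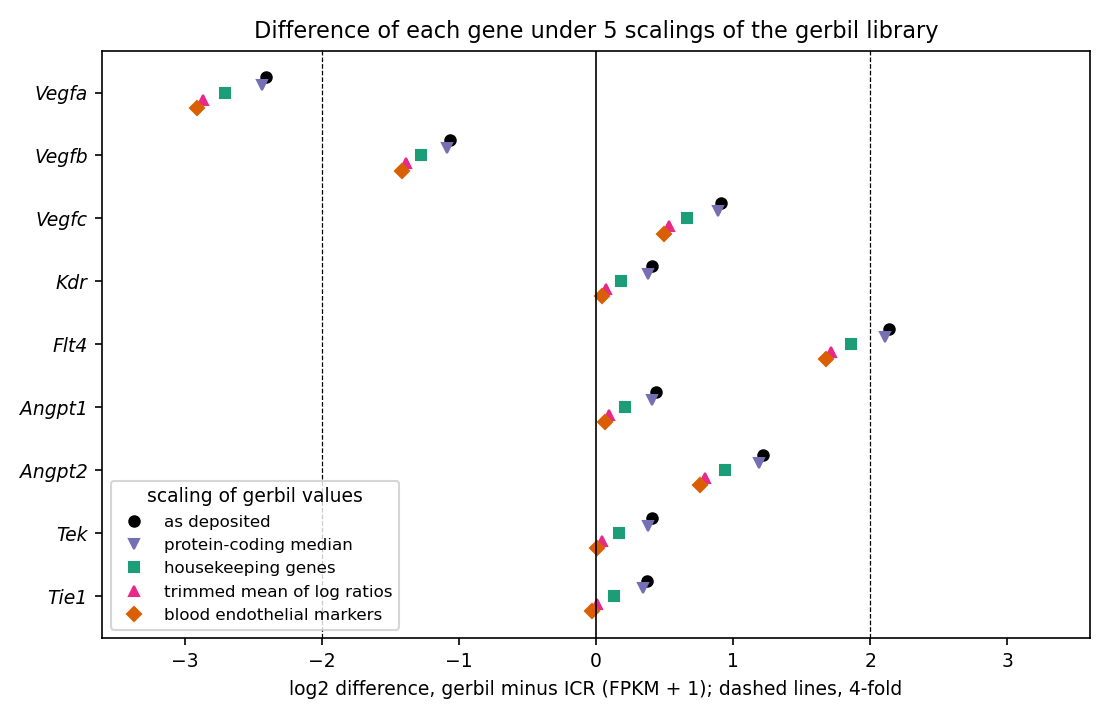
Log2 difference (gerbil minus ICR, FPKM + 1) of the 9 genes as deposited and under 4 scalings of the gerbil library, with dashed lines at 4-fold. Vegfa lies beyond 4-fold on the ICR side in each, and Kdr, Angpt1, Tek and Tie1 lie within 0.5 of 0 throughout.

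Other ligands of the family were poorly covered in gerbil. Pgf, a FLT1 ligand, was at 12.4 FPKM and Vegfd, another FLT4 ligand, listed under its older name Figf, at 17.05 FPKM in ICR, and neither had a gerbil value. Both stood above Vegfb and Vegfc in ICR. Of the 9 genes found in this list, Pgf and Vegfd included, 6 were measured. All but Angpt4 of these 6 are angiopoietin-like genes, so the counts describe those more than ligands of the VEGF or TIE receptors. In gerbil 3 were higher and 3 lower. By 4-fold 0 of the 6 differed, where 9.71% of protein-coding genes did toward gerbil and 7.42% toward ICR. The median of 0.15 over the 6 changed sign under 3 scalings, to -0.10 (trimmed mean), -0.02 (housekeeping) and -0.12 (endothelial). The angiopoietin-like gene Angptl4, a hypoxia-responsive inhibitor of lipoprotein lipase, was at 45.8 FPKM in gerbil and 62.5 in ICR. Angptl2, an inflammatory member of that family, was at 44.3 FPKM in gerbil and 28.9 in ICR. Angptl6, a low gene of the family, was at 0.65 FPKM in gerbil and 1.99 in ICR, on a match of 1e-106.

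Among co-receptors, Nrp1, the neuropilin that binds VEGF-A with KDR, was at 15.3 FPKM in ICR with no gerbil value. Nrp2, the neuropilin that works with FLT4, was at 6.16 FPKM in gerbil and 6.98 in ICR. Ptprb, the endothelial phosphatase that restrains TEK, was at 1.90 FPKM in gerbil and 0.265 in ICR, the same gerbil value as Vegfb although the genes are unrelated. Of 13 measured genes in this list 8 were higher and 5 lower in gerbil, with 1 past 4-fold on the gerbil side and 3 on the ICR side. Of measured protein-coding genes, 59.6% were higher in gerbil, 9.71% by 4-fold or more, and 7.42% were at least 4-fold higher in ICR. The co-receptor median of 0.50 came to -0.03 under endothelial scaling. The integrin chain Itgb1 differed most, at 5.18 FPKM in gerbil and 212 in ICR. Itgav, another integrin chain, was at 1.97 FPKM in gerbil and 14.6 in ICR on a weak match of 3e-20. The heparan sulphate carriers Sdc1 (383 FPKM in gerbil and 428 in ICR) and Sdc4 (97.05 FPKM in gerbil and 92.2 in ICR) were the most abundant by mean log2 level over both libraries, although Itgb1 stood above Sdc4 in ICR.

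Signal transducers used by these receptors were split, with 25 higher and 26 lower of 51 measured and a median of -0.05. By the 4-fold rule 0 stood on the gerbil side, where the protein-coding share was 9.71%, and 8 on the ICR side. The share past 4-fold on that side was 7.42% among protein-coding genes but 13.3% among those near the level of Vegfa, and no test was run. The count was 4 with a pseudocount of 5 FPKM and 0 among unshared gerbil values, and it includes Sh2b3, an adaptor listed at 0 in gerbil. Rac1, a small GTPase of cell migration, was at 14.5 FPKM in gerbil and 179 in ICR, and Mapkapk2, a kinase below p38, at 6.20 in gerbil and 79.0 in ICR. Cdc42, another small GTPase, was near level at 278 FPKM in gerbil and 309 in ICR, and Hspb1, a heat shock protein phosphorylated below p38, was at 164 in gerbil and 80.5 in ICR. These proteins serve many receptors besides those of VEGF.

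Genes of the hypoxia response, which induces Vegfa, were split, with 10 of 18 measured higher and 8 lower in gerbil. By the 4-fold rule 0 stood on the gerbil side and 1 on the ICR side. Of measured protein-coding genes, 59.6% were higher in gerbil, 9.71% by 4-fold or more, and 7.42% were at least 4-fold higher in ICR. The hypoxia median was 0.20 as deposited, but -0.32, -0.14 and -0.37 under trimmed mean, housekeeping and endothelial scaling, so it gives no firm direction. The glucose transporter Slc2a1 was at 492 FPKM in gerbil and 235 in ICR, and Ndrg1, a hypoxia-responsive gene, at 617 in gerbil and 274 in ICR. Vegfa was thus 0.0204 of Slc2a1 in gerbil and 0.243 in ICR, a ratio that also carries the higher Slc2a1 level in gerbil. Among the 8 lower genes were Adm, at 14.2 FPKM in gerbil and 31.9 in ICR, and Egln3, at 109 in gerbil and 184 in ICR. Ldha, lactate dehydrogenase A, was level at 1905 FPKM in gerbil and 1848 in ICR. The gene past 4-fold was Hif1a, the oxygen-regulated transcription factor, at 1.08 FPKM in gerbil and 87.2 in ICR, on a weak match of 1e-16. Its relative Epas1 was at 28.1 FPKM in gerbil and 10.7 in ICR, on a match of 0.

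Genes that VEGF is known to induce in endothelium were split once low genes were set aside. Of 18 measured, 12 were higher and 6 lower in gerbil, with a median of 0.64, and 59.6% of measured protein-coding genes were higher there. Esm1, Dll4 and Adamts9 reached 1 FPKM in gerbil alone. Over the 15 that reached it in both libraries, 9 were higher and 6 lower, with a median of 0.09. Trimmed mean and endothelial scaling gave medians of 0.14 and 0.09 over all 18. By the 4-fold rule 1 stood on the gerbil side and 0 on the ICR side, where the protein-coding shares were 9.71% and 7.42%. Nr4a2, an orphan nuclear receptor and immediate early gene, was at 62.8 FPKM in gerbil and 1.45 in ICR, a gerbil value listed for no other gene. Cxcr4, a chemokine receptor also carried by leukocytes, was at 179 FPKM in gerbil and 66.9 in ICR. Egr1 was at 56.8 FPKM in gerbil and 120 in ICR, and Cd34, a vessel and progenitor antigen, at 13.8 in gerbil and 53.5 in ICR. Many of these genes are also made by other cells of a wound.

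Genes listed as restraining vessel growth, a label that does not hold for Vash2, were higher in gerbil for 15 of 20 measured and lower for 5. The median was 0.62, and 2 were past 4-fold in each direction, Vash2 among those on the gerbil side. Of measured protein-coding genes, 59.6% were higher in gerbil, 9.71% by 4-fold or more, and 7.42% were at least 4-fold higher in ICR. Col4a1 and Col4a2 are both counted though they share the gerbil value of 39.85 FPKM. Of the 20 genes, 6 reached 1 FPKM in gerbil alone, Vash1 and Vash2 among them. Over the 14 that reached it in both libraries, 9 were higher and 5 lower, with a median of 0.11, and a pseudocount of 5 FPKM gave 0.25 over all 20. Thbs1, thrombospondin 1, was at 534 FPKM in gerbil and 180 in ICR. Serpinf1, which encodes pigment epithelium-derived factor, was near level at 126 FPKM in gerbil and 116 in ICR. The genes past 4-fold toward ICR were Sparc, a matricellular protein, at 1.15 FPKM in gerbil and 965 in ICR on a weak match of 7e-28, and Col18a1, the source of endostatin, at 4.03 in gerbil and 34.0 in ICR on a match of 8e-153.

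Markers of vessel and other cells are given as levels, since no cell content was measured. Of 24 measured blood endothelial markers, counted without the VEGF and TIE receptors, 16 were higher and 8 lower in gerbil, with a median of 0.57 and summed levels of 263 FPKM in gerbil and 165 in ICR. The median was 0.14 under trimmed mean scaling, 0.29 under housekeeping scaling and 0.25 with a pseudocount of 5 FPKM. Of the 24, 4 reached 1 FPKM in gerbil alone and could only be higher there, and 2 reached it in ICR alone. Over the 18 that reached it in both libraries, 12 were higher and 6 lower, with a median of 0.55. Of measured protein-coding genes 59.6% were higher in gerbil, and 51.3% of those at 1 FPKM in both libraries. By the 4-fold rule 2 markers stood on the gerbil side and 3 on the ICR side, where the protein-coding shares were 9.71% and 7.42%. Cd93, an endothelial and myeloid lectin, was at 44.6 FPKM in gerbil and 11.3 in ICR, and Acvrl1, an endothelial BMP receptor, at 24.8 in gerbil and 20.8 in ICR. Fli1, a transcription factor of endothelium and blood, was at 62.5 in gerbil and 5.59 in ICR, and the secreted Egfl7 at 2.26 in gerbil and 26.4 in ICR. Of these measured markers 2, Icam2 and Gpihbp1, were listed at 0 in gerbil.

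Lymphatic markers, the other genes of the cells that carry Flt4, were low in ICR. Of 12 measured, 11 were higher in gerbil and 1 lower, with a median of 1.04, but 8 of them reached 1 FPKM in gerbil alone and could only be higher there. Of the 4 that reached it in both libraries, 3 were higher and 1 lower, with a median of 0.54, so the list gives no firm direction. Summed levels were 310 FPKM in gerbil and 83.8 in ICR. Most of that sum is Pdpn, podoplanin, at 271 FPKM in gerbil and 62.0 in ICR, which keratinocytes and fibroblasts of a wound also make. Prox1, the master regulator of lymphatic identity, was at 1.33 FPKM in gerbil and 0.123 in ICR. Lyve1, the hyaluronan receptor of lymphatic endothelium and of some macrophages, was the exception, at 3.27 FPKM in gerbil and 14.0 in ICR. Ccl21a, a lymphatic chemokine, stood at 13.96 FPKM in gerbil, and its ICR value was listed as 0. The part of lymphatic content in the Flt4 and Vegfc differences was not tested.

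Mural cell markers, whose cells are a source of Angpt1, were higher in gerbil for 14 of 16 measured genes and lower for 2, with a median of 0.71 and sums of 868 FPKM in gerbil and 365 in ICR. The median was 0.33, 0.43 and 0.30 under trimmed mean, housekeeping and endothelial scaling. Of the 16, 4 reached 1 FPKM in gerbil alone, and over the other 12 there were 10 higher and 2 lower. The share higher in gerbil was 59.6% over measured protein-coding genes and 51.3% over those at 1 FPKM in both libraries. The largest differences were Cspg4, which is 1 of those 4, encoding the NG2 proteoglycan of pericytes, at 19.8 FPKM in gerbil and 0.399 in ICR, and Anpep, aminopeptidase N, at 125 in gerbil and 17.2 in ICR. The most abundant were Ndufa4l2, at 344 FPKM in gerbil and 207 in ICR, and the smooth muscle actin gene Acta2, at 169 in gerbil and 42.5 in ICR. Macrophage markers, from a known source of Vegfa, were higher in gerbil for 2 of 9 measured genes and lower for 7, with a median of -0.76 and sums of 1441 FPKM in gerbil and 2230 in ICR. Cd14, which helps cells sense lipopolysaccharide, was at 784 FPKM in gerbil and 1332 in ICR, and C1qb, a complement subunit, at 170 in gerbil and 254 in ICR. Cd163, a scavenger receptor of resident macrophages, went against the list at 139.8 FPKM in gerbil and 10.3 in ICR, and Mertk was listed at 0 in gerbil. Keratinocyte markers were 6 higher and 6 lower of 12 in gerbil, with sums of 69028 FPKM in gerbil and 34776 in ICR. Those sums count shared gerbil values more than once, since Krt14 and Krt16 carry the same one, as do Krt5 and Krt6a, and Krt14 was listed at 0 in ICR. The part of macrophage or keratinocyte content in the Vegfa difference was not tested.

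**Figure D5:**
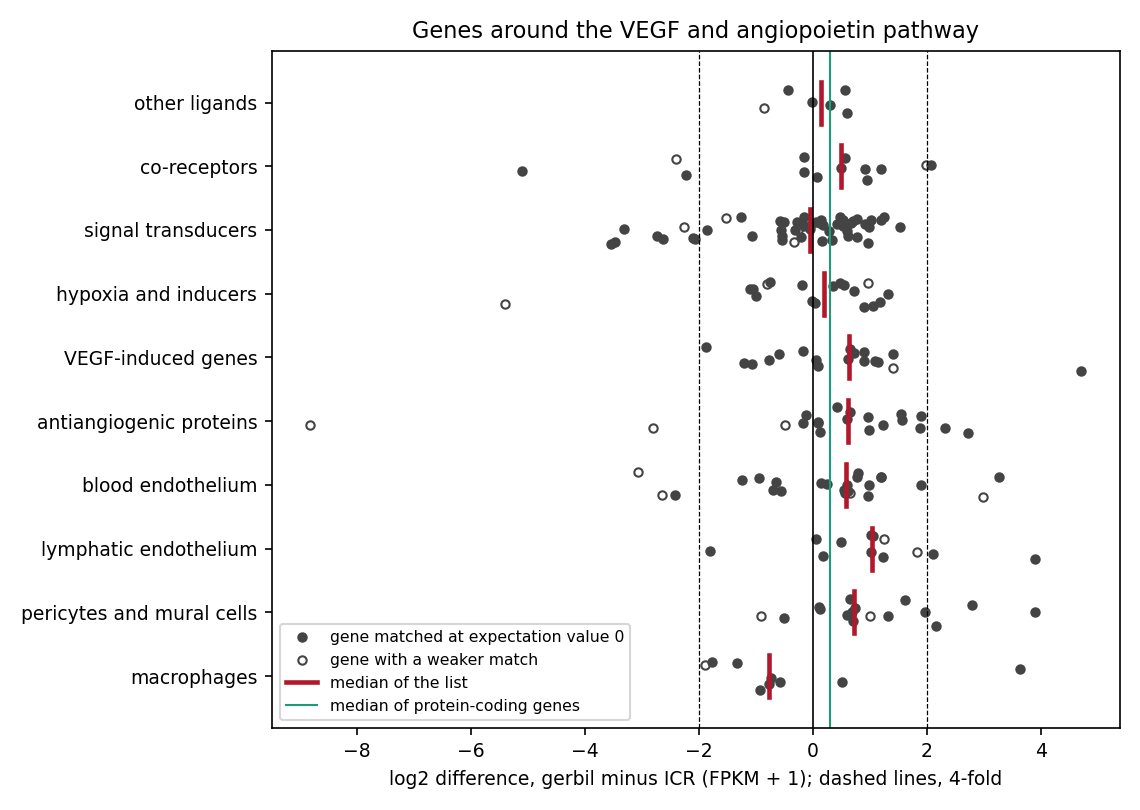
Log2 difference (gerbil minus ICR, FPKM + 1) of each measured gene of 10 lists, without the VEGF and angiopoietin genes described above. Filled points are matched with an expectation value of 0, open points are weaker matches, red bars are list medians and the green line is the median of measured protein-coding genes. The macrophage median lies on the ICR side, and the lymphatic median rests mostly on genes below 1 FPKM in ICR.

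Over the pair of libraries, the nearest gene of the pathway and vessel lists was found for each gene by distance in log2(FPKM + 1). With 2 values per gene this measures likeness of level alone. Cd34 was nearest to Vegfa (distance 0.44), Erg to Angpt2 (0.28) and Vash1 to Flt4 (0.20). Cox4i2 was nearest to Vegfb (0.26), Higd1b to Vegfc (0.14), Gja4 to Kdr (0.25) and Nos3 to Angpt1 (0.24).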

How the data were processed

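Values were FPKM in a table the authors deposited. Its header puts ICR under provided results and gerbil under expression measured after assembly, where a further column holds the expectation value of each match. The search program is not given in the sources used here. Among tools, Cufflinks 2.2.1, RSEM 1.2.19, STAR 2.4.0b and CASAVA are listed, and GRCm38.p2 as the build, per the submitters' processing notes, without roles. Groups came from the sample labels, with 1 library each, so no test was run. Differences are log2(FPKM + 1), gerbil minus ICR, which understates those of low genes. Where a symbol had several entries, the one with the highest mean log2(FPKM + 1) stood for it. Of the table's genes, 221 had no value in either column and 40254 were found in GENCODE M21, used for coding class and coding sequences. Coding sequences were searched with blastn 2.17.0 (expectation value 1e-05 or less, at least 100 bases). The genes and lists were chosen with earlier results of these data known. The genes named are the 10, the 2 most abundant and the 2 most different measured genes of each list, and fixed ones such as Pgf and Nrp1. Those of the muscle and housekeeping lists are not described one by one. Slc2a1, Adm, Egln3, Prkca, Prkcb, Col4a1, Col4a2, Prox1, Icam2, Gpihbp1, Sh2b3, Adamts9, Esm1, Dll4 and Vash2 were named after their values were seen. Comparison with genes of like level and the protein-coding scaling were added after the data were seen. Python 3.11.15 with pandas 2.3.3, numpy 2.4.6 and matplotlib 3.10.9 did the calculations, which were tested on simulated data. The nearest gene to Tek and Tie1 is not reported here.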

Additional observations from a re-analysis of the deposited data

How the results depend on the processing

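No paired analysis was possible because the design has a lone library on either side, which also leaves no library to drop. Vegfa was lower in gerbil and past 4-fold under each of 9 alternatives (log2 difference -2.91 to -2.05), and Vegfb lower under each (-1.41 to -0.55). Most of these alternatives could not have weakened either difference. The floor settings and summed entries left both values as they were, and the scalings, by lowering gerbil, could only enlarge them. Only the pseudocount of 5 FPKM brought either ligand nearer level. Flt4 ranged from 0.92 to 3.39 and Tie1 from -0.03 to 0.51. The count of the 9 genes at least 4-fold higher in gerbil was 0 with a pseudocount of 5 FPKM, with the trimmed mean, housekeeping or endothelial scalings, with an 8-fold rule and when each library had to reach 1 FPKM, which drops Flt4; it was 2 with a 2-fold rule. The count at least 4-fold higher in ICR was 2 with a 2-fold rule and 0 with an 8-fold rule. The median over the genes was 0.61 with a pseudocount of 0.1 FPKM, 0.18 with 5 FPKM, 0.072 with the trimmed mean scaling, 0.18 with housekeeping scaling and 0.04 with endothelial scaling. Each scaling lowered gerbil, as each reference set stood higher there by the measure used, and other causes were not tested. Unshared gerbil values gave no result, because none of the 9 genes has one. Of 475 counts and medians of the lists under the alternatives, 318 stayed within 1.5-fold or 0.1 of their first value and 157 moved further. Skeletal muscle markers had a median of 0.97 over 9 genes, and the 20 housekeeping genes one of 0.34. With depth unknown, values near 1 FPKM have no stated precision.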
